A study of Mus musculus with 6 samples.

Results

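The genes of the constitutive proteasome were compared between kidneys of 24-month-old WT and fat-1 knockin mice. Members were chosen by name: every gene whose symbol starts with Psma, Psmb, Psmc, Psmd, Psmf or Psmg, without the inducible subunits Psmb8, Psmb9 and Psmb10, plus Psme3, Psme4, Pomp and Adrm1. All 44 listed genes that fit these names reached 1 FPKM in at least 3 libraries, out of 11698 tested genes. FPKM is a fragment count divided by transcript length and by library size, and the deposited transcript values were summed per gene. The series holds 6 RNA sequencing libraries of kidney total RNA, 3 of the genotype WT and 3 of the genotype fat-1 knockin, called fat-1 below; all mice were 24 months old. The fat-1 gene comes from a nematode and encodes an enzyme that converts omega-6 fatty acids to omega-3, a step that mammals lack. The promoter that drives it, the strain and the sex of the mice are not stated in the labels, and the level of fat-1 itself was not analysed here. The series asks what fat-1 does in old kidney, and the comparison here is fat-1 against WT at that 1 age.

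The proteasome is the protease that degrades ubiquitin-tagged proteins in the cytosol and nucleus. Its barrel, the 20S core, is built from rings of alpha subunits, which gate the entry, on either side of rings of beta subunits, of which Psmb6 (beta1), Psmb7 (beta2) and Psmb5 (beta5) carry the cutting sites. The 19S cap has a base, in which the Psmc ATPases unfold the substrate, and a lid, which removes the ubiquitin chain. Interferon-induced beta subunits can replace the cutting sites to form the immunoproteasome. Cells that sense too little proteasome activity raise most subunit genes together through the transcription factor NRF1 (Nfe2l1).

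The kidney markers checked against the label were high in all 6 libraries: Slc34a1, the phosphate transporter of the proximal tubule, was between 854 and 1359 FPKM, and Umod, which marks the thick ascending limb, was between 425 and 1034 FPKM. The sum of 6 proximal tubule markers was between 2483 and 3246 FPKM in WT and between 2485 and 3195 FPKM in fat-1. Markers of some other cell types had different sums in the genotypes: 6 of 6 endothelial markers had an unadjusted p under 0.05 and were higher in fat-1, 1 of them past the adjusted threshold (summed 63.5 to 75.9 FPKM in WT and 138 to 191 in fat-1), and 4 of 5 intercalated cell markers had one too and were lower, 0 of them past the adjusted threshold (summed 98.5 to 105 FPKM and 61.9 to 66.4). Podocyte markers had one in 3 of 4 genes, all higher in fat-1 (summed 57.3 to 66.6 FPKM in WT and 81.0 to 99.5 in fat-1), and distal convoluted tubule markers in 2 of 4, both lower (298 to 447 and 165 to 258), 0 of these past the adjusted threshold. WT replicate 1 held the highest sum of macrophage markers, 348 FPKM against 66.7 to 126 elsewhere. In bulk RNA, fewer cells of a type and less RNA per cell cannot be told apart, and the part of these shifts in the values below was not tested.

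No proteasome gene passed the test between the genotypes. With limma on log2(FPKM + 1) and Benjamini-Hochberg adjustment over all 11698 genes, 0 of 44 members had an adjusted p under 0.05, where 0.180% of all genes did. At an unadjusted p under 0.05 there were also 0 members, where 9.97% of all genes passed. The libraries of the genotypes overlapped for all 44 members, where 15.2% of all tested genes had groups that did not overlap. The differences (log2(FPKM + 1) of fat-1 less that of WT) lay between -0.25 and 0.25, with 20 above and 24 below 0. Their median was -0.0036, and that of all tested genes was 0.0059.

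The intervals show what size of difference these 6 libraries leave room for. For 32 of 44 members the 95% interval of the difference lay within 0.5 of 0 on the log2 scale, which held for 32.5% of all tested genes. The median level was 53.3 FPKM for the members and 8.68 for all tested genes, and no such share was computed at like level. For 43 members the interval lay within 1, and Psmd2 was the exception, with an interval from -1.10 to 0.91. By subunit group, the median difference was 0.01 for the 7 alpha subunits and -0.04 for the 7 beta subunits. It was 0.01 for the 6 ATPases, 0.04 for the 4 other base subunits, -0.02 for the 8 lid subunits and -0.04 for the 8 assembly factors. The labels do not say that the libraries come from separate animals, so the p-values measure only the spread between these samples.

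**Figure D1:**
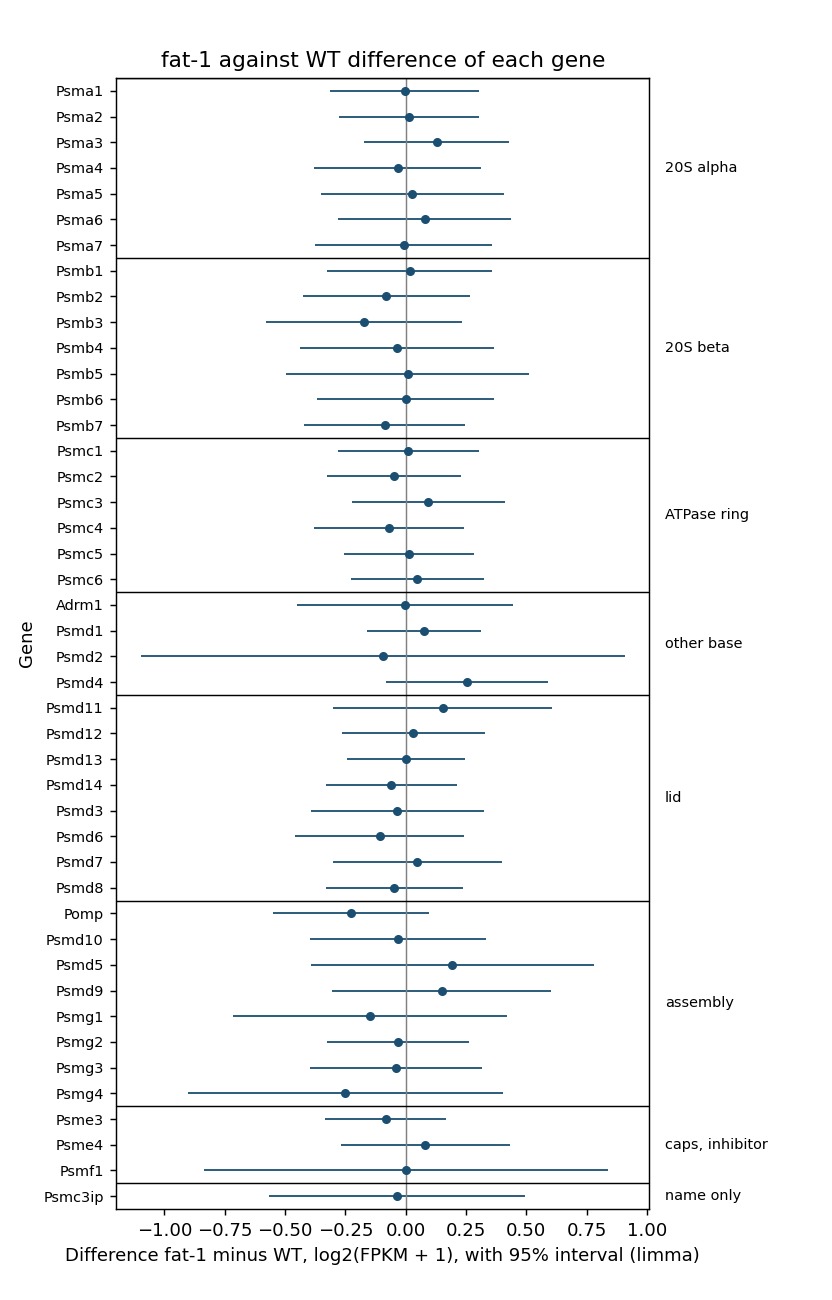
Difference between fat-1 and WT for each of the 44 genes, as log2(FPKM + 1), fat-1 minus WT; points are limma estimates from 3 libraries per group, bars are 95% intervals, and blocks are subunit groups. Every interval includes 0, and the widest belongs to Psmd2.

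The catalytic beta subunits were among the most abundant members and stood at like levels in both genotypes. Psmb6, the beta1 subunit that cuts after acidic residues, lies on chromosome 11 from 70525386 to 70527649 (mm10, plus strand). Its level was 155, 152 and 180.4 FPKM in WT replicates 1 to 3, and 196, 145 and 150.2 in fat-1 replicates 1 to 3, the highest mean of all members. The WT libraries lay inside the range of the fat-1 libraries, which held both the highest and the lowest value. The means were 163 ± 15.4 and 164 ± 28.1 FPKM (SD, n = 3 each), and the 95% interval of the log2 difference ran from -0.37 to 0.37. Psmb5, the beta5 subunit with chymotrypsin-like activity and the main target of bortezomib, lies on chromosome 14 from 54614119 to 54618022 (minus strand). It was at 101, 114 and 135 FPKM in WT and at 156, 94.9 and 106 in fat-1, so that fat-1 held both the highest and the lowest library. Its difference was 0.01 ± 0.21 (SE), with an adjusted p of 0.999 by limma. Psmb7, the trypsin-like beta2 subunit, lies on chromosome 2 from 38588036 to 38644087 (minus strand). It was at 103, 119.7 and 129 FPKM in WT and at 124, 107 and 99.7 in fat-1, with a difference of -0.09 ± 0.14. GENCODE M21 names processed pseudogenes of Psmb5, Psmb6 and Psmb7, and how reads were divided between these copies is not stated in the sources used here.

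The start regions of 2 catalytic subunits and of 2 interferon-induced genes of the same pathway are shown here as examples. Psmb5, Psmb6 and Psme1 hold a match to the letters marked below. Most windows of the members and of the interferon-induced genes do not. Each is 300 bases, 250 before to 50 after the RefSeq start, 5′ to 3′ along the gene, on GRCm38.p6. The places are chr14:54617946-54618245 (minus strand) for Psmb5, chr11:70525107-70525406 (plus) for Psmb6, chr17:34197945-34198244 (plus) for Psmb8 and chr14:55578244-55578543 (plus) for Psme1. Capitals mark TGACNNNGC, the core of the antioxidant response element that NRF1 and NRF2 bind with small Maf proteins, and GAAANNGAAA, the core of the interferon-stimulated response element, each searched on both strands.
Psmb5: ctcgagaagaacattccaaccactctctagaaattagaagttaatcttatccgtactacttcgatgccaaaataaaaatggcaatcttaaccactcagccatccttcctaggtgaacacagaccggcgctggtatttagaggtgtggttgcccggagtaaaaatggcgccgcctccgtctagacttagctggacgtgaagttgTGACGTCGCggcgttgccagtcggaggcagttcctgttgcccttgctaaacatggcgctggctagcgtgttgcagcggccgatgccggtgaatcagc
Psmb6: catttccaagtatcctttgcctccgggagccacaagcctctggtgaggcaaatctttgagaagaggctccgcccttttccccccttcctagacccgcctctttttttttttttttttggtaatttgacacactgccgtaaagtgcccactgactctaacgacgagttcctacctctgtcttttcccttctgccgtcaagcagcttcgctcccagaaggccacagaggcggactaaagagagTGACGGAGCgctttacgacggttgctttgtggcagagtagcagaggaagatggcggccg
Psmb8: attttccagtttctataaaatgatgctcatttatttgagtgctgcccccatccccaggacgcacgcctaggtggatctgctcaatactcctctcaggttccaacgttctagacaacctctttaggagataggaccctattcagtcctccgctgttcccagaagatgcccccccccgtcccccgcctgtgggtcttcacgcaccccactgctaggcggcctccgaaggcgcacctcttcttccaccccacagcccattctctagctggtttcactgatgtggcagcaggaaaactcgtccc
Psme1: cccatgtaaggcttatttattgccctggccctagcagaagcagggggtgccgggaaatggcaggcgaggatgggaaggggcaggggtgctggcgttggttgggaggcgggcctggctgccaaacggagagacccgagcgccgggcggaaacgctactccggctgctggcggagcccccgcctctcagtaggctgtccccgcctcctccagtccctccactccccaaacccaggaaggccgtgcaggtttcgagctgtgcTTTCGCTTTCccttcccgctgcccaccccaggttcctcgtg

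The antioxidant core lay at -47 from the start in Psmb5 and at -9 in Psmb6, both on the gene's strand. RefSeq windows were at hand for 37 of the 44 members (39 windows), not for Psmb1, Psmb2, Psmb7, Psmc3, Psmd3, Psmd7 and Psmg2. The core was in 7 of 39 windows (17.9%), those of Adrm1, Psmb5, Psmb6, Psmc6, Psmd9, Psmd12 and Psme4, in 14.4% of the windows of tested genes and in 12.4% of all 32851 windows. CCAAT, the box bound by NF-Y, was in 14 of the 39 windows (35.9%) and in 37.4% of all. GAAANNGAAA was in 4 of the 39 (10.3%, Psmb3, Psmd4, Psmd9 and Psmg4) and in 3.44% of all windows; among the 6 windows of the inducible subunits and PA28 it was in that of Psme1, at 9 on the opposite strand. The windows of Psmb8 and Psmb9, and of the members Psmd13 and Psmf1, lie inside the listed extents of these genes. The region before their outermost listed start was therefore not searched. A window of Psma6 ends at 55384271 on chromosome 12, before that gene's listed extent begins at 55398775, and was counted. These matches describe the letters of the windows and nothing about binding.

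The alpha subunits form the outer rings of the core, and their amino ends close its gate. Psma3 had the smallest p of the 7. It was at 36.0, 36.0 and 39.1 FPKM in WT and at 47.0, 37.3 and 38.0 in fat-1, a difference of 0.13 ± 0.13 (adjusted p = 0.854, limma). The fat-1 libraries other than replicate 1 lay inside the WT range. Psma6 was at 92.4, 94.6 and 107 FPKM in WT and at 125, 96.6 and 91.2 in fat-1, again with replicate 1 alone above WT (difference 0.08 ± 0.15). The other 5 alpha subunits differed by between -0.03 and 0.03. Of the beta subunits without a cutting site, Psmb3 had the smallest p. It was at 112, 113 and 141 FPKM in WT and at 133, 95.2 and 98.2 in fat-1, a difference of -0.17 ± 0.17 (adjusted p = 0.856, limma).

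The 6 ATPases form the ring that unfolds substrates and opens the gate, and their median ratio of highest to lowest library, 1.21, was the lowest of the subunit groups. Psmc3 was at 81.0, 82.8 and 99.8 FPKM in WT and at 94.7, 84.7 and 102 in fat-1 (difference 0.09 ± 0.13, the smallest p of the ring). Psmc4 was at 49.8, 57.5 and 55.9 FPKM in WT and at 58.9, 46.0 and 51.1 in fat-1 (difference -0.07 ± 0.13). For both genes the libraries of the genotypes interleave.

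Among the other base subunits are the ubiquitin receptors Psmd4 (Rpn10) and Adrm1 (Rpn13) and the scaffolds Psmd1 and Psmd2. Psmd4 had the largest positive difference and the smallest p of all 44 members. It was at 42.0, 40.6 and 48.4 FPKM in WT and at 60.9, 46.3 and 50.2 in fat-1. A single fat-1 library, replicate 2, lay below the highest WT library. The difference was 0.25 ± 0.14 (95% interval -0.08 to 0.59), with an adjusted p of 0.659 by limma. Psmd1, a scaffold of the base, was at 47.0, 48.0 and 48.6 FPKM in WT and at 53.3, 50.0 and 48.3 in fat-1 (difference 0.07 ± 0.10). Psmd2, described because its values were seen to stand apart, was at 47.3, 54.8 and 26.0 FPKM in WT and at 53.7, 48.9 and 20.9 in fat-1. It was low in replicate 3 of both genotypes, and its highest library was 2.62 times its lowest, the widest spread of the 44. The difference was -0.10 ± 0.42. Leaving out the low WT library gave -0.41 ± 0.42, leaving out the low fat-1 library gave 0.32 ± 0.32, and dropping WT replicate 1 besides the latter gave 0.43 ± 0.36.

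The lid holds Psmd14 (Rpn11), the enzyme that cuts the ubiquitin chain off, and its 8 members differed by between -0.11 and 0.15. Psmd11 (Rpn6), a lid scaffold, was at 21.5, 27.0 and 35.4 FPKM in WT and at 34.0, 27.5 and 30.6 in fat-1, so that the fat-1 libraries lay inside the WT range (difference 0.15 ± 0.19). Psmd6 was at 50.4, 56.8 and 62.3 FPKM in WT and at 60.4, 52.1 and 45.1 in fat-1 (difference -0.11 ± 0.15). Psmd14 itself was 43.5 ± 3.35 FPKM in WT and 41.7 ± 2.95 in fat-1 (SD, n = 3 each). Psmd13 was the steadiest of all members, with 1.13 between its highest and lowest library.

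Assembly factors build the particle and leave it again. Pomp, which helps the beta rings form and is degraded by the finished core, was at 72.8, 63.1 and 77.5 FPKM in WT and at 68.1, 54.3 and 59.7 in fat-1. Its fat-1 replicate 1 overlapped with WT and the other two lay below all WT libraries. The difference was -0.23 ± 0.14 (95% interval -0.55 to 0.10), with an adjusted p of 0.698 by limma. Psmg4, an assembly chaperone of the alpha ring, had the lowest difference of all members. It was at 35.9, 18.2 and 28.6 FPKM in WT and at 29.0, 19.7 and 19.1 in fat-1, a difference of -0.25 ± 0.27 with the groups interleaved. The other assembly factors are Psmg1, Psmg2, Psmg3 and the base chaperones Psmd5, Psmd9 and Psmd10, whose differences were between -0.15 and 0.19.

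The alternative caps Psme3 (PA28 gamma) and Psme4 (PA200) and the inhibitor Psmf1 (PI31) completed the set. Psme3 was at 32.8, 35.0 and 33.2 FPKM in WT and at 34.3, 31.4 and 29.6 in fat-1 (difference -0.08 ± 0.11). Psme4 was at 22.2, 31.0 and 27.1 FPKM in WT and at 27.6, 30.8 and 26.2 in fat-1 (difference 0.08 ± 0.15). Psmf1 ranged from 3.64 to 8.47 FPKM, with 1 low library in each genotype. Psmc3ip fits the name rule but is a factor of meiotic recombination and no part of the proteasome. It was the lowest member, at 1.77, 2.03 and 1.65 FPKM in WT and at 2.59, 1.15 and 1.69 in fat-1.

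**Figure D2:**
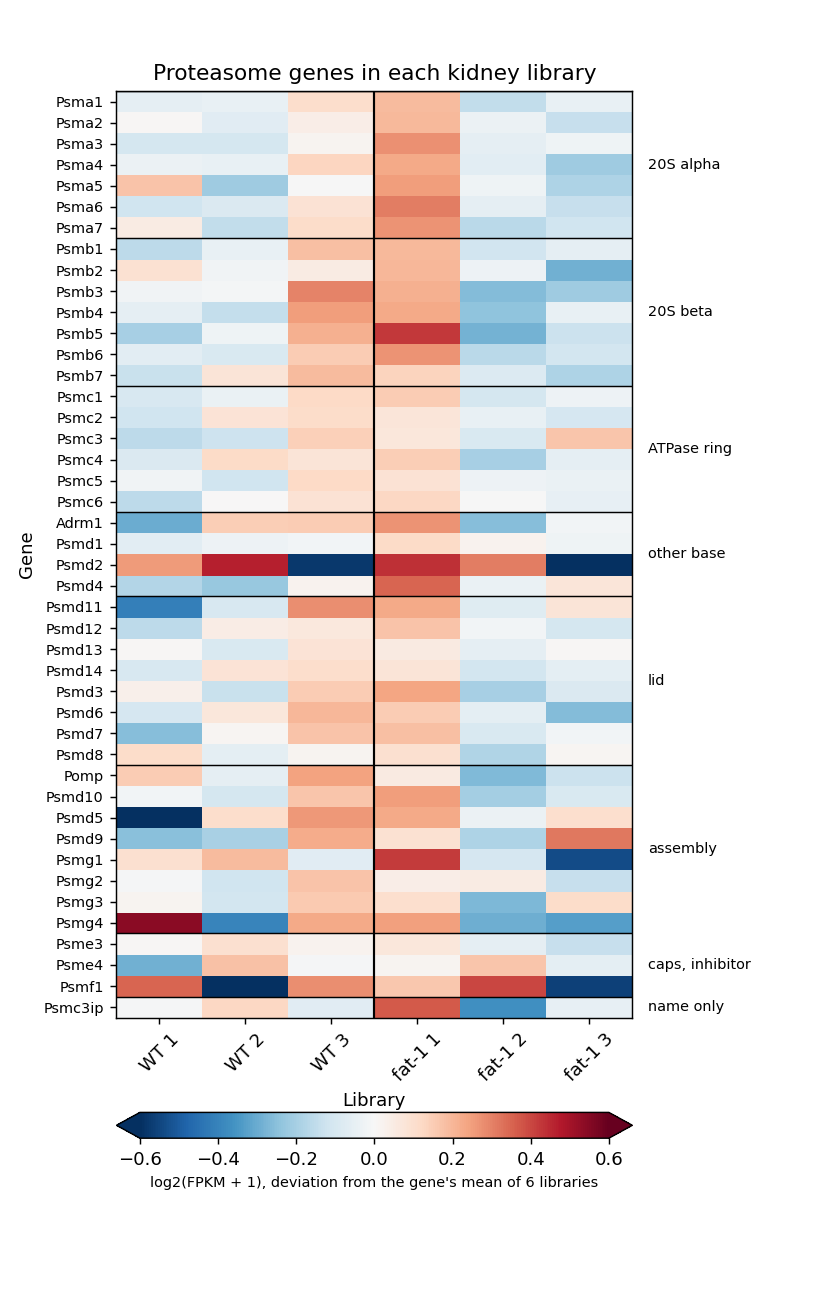
Each of the 44 genes (rows, by subunit group) in each of the 6 libraries (columns), as the deviation of log2(FPKM + 1) from the gene's mean over the 6 libraries; red is higher, blue is lower, and deviations beyond 0.6 take the end colour. The fat-1 replicate 1 column is the reddest, and Psmd2 is dark blue in both replicate 3 columns.

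The members shared their high and low libraries. Of the 44 members, 23 were highest in fat-1 replicate 1 and 13 in WT replicate 3; of the 14 core subunits these libraries held the highest value for 11 and 3. The 5 erythrocyte markers summed to 534 FPKM in fat-1 replicate 1, to 22.5 and 7.13 in fat-1 replicates 2 and 3 and to between 131 and 235 in WT, and their part in the members' values was not tested. The lowest value fell in fat-1 replicate 2 for 15 members, in WT replicate 1 for 13 and in fat-1 replicate 3 for 10. As a mean over its 14 genes, the core deviated from its mean over 6 libraries by -0.04, -0.07 and 0.13 on the log2 scale in WT replicates 1 to 3 and by 0.24, -0.12 and -0.13 in fat-1 replicates 1 to 3. The lid did so by -0.11, -0.02 and 0.13 in WT and by 0.15, -0.10 and -0.05 in fat-1. The ATPase ring did so by -0.11, -0.01 and 0.11 in WT and by 0.11, -0.08 and -0.02 in fat-1. All 3 assemblies were thus above their mean in WT replicate 3 and fat-1 replicate 1 and below it in the other 4 libraries. The 1792 tested genes in the level range of the core and 19S subunits had median deviations of -0.04, -0.02 and 0.07 in WT and of 0.08, -0.06 and -0.03 in fat-1, with the same libraries above 0.

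**Figure D3:**
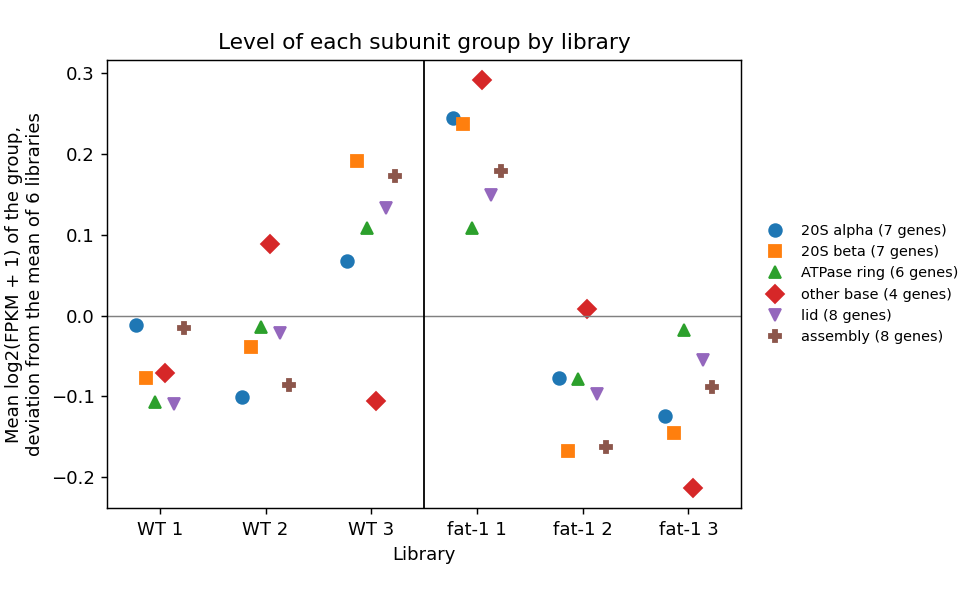
Mean log2(FPKM + 1) of 6 subunit groups in each library, as the deviation from the group's mean over the 6 libraries; each symbol is 1 group, and the line separates WT from fat-1. All groups stand above 0 in fat-1 replicate 1, and all but the other base subunits do so in WT replicate 3.

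The group levels differed between the genotypes by less than the spread between libraries. Mean log2 levels (SD over 3 libraries) were 6.27 ± 0.08 in WT and 6.30 ± 0.20 in fat-1 for alpha, and 6.89 ± 0.14 and 6.84 ± 0.23 for beta. They were 6.14 ± 0.11 and 6.15 ± 0.10 for the ATPase ring, 5.55 ± 0.12 and 5.55 ± 0.13 for the lid, and 4.38 ± 0.13 and 4.33 ± 0.18 for the assembly factors. Together the 44 members took 0.656%, 0.630% and 0.677% of the summed FPKM of WT replicates 1 to 3 and 0.730%, 0.602% and 0.641% of fat-1 replicates 1 to 3.

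Within a library the ATPase ring and the lid kept close proportions. The ATPase ring less the core was -0.49, -0.37 and -0.45 on the log2 scale in WT and -0.56, -0.38 and -0.31 in fat-1. That band was no narrower than the ring's own levels. The lid lay below the core by 1.09, 0.97 and 1.02 on the log2 scale in WT and by 1.11, 1.00 and 0.94 in fat-1. The ATPase ring exceeded the lid by 0.60, 0.60 and 0.57 in WT and by 0.55, 0.61 and 0.63 in fat-1, a narrower band than the levels of either assembly. The beta subunits exceeded the alpha subunits by 0.51, 0.64 and 0.70 in WT and by 0.57, 0.49 and 0.56 in fat-1. These are means of log2(FPKM + 1), so they compare levels per transcript length.

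Mean FPKM over the 6 libraries spanned 4.01-fold among the alpha subunits, 2.31-fold among the beta subunits and 2.13-fold in the lid. Psma4 led with 156 FPKM, followed by Psma7 with 117, and each exceeded the next gene in 6 of 6 libraries. Psma6 and Psma1 were level at 101 each, and Psma5 (53.4), Psma2 (41.9) and Psma3 (38.9) followed. Each core holds every alpha subunit in equal number. Among the beta subunits Psmb6 (163 FPKM) and Psmb1 (136) led, Psmb5, Psmb4, Psmb3 and Psmb7 (118 to 114) changed places between libraries, and Psmb2 was lowest at 70.6. The ATPases spanned 1.71-fold, in the order Psmc3 (90.8), Psmc1 (83.8), Psmc5 (77.2) and Psmc2 (66.8), each above the next in 6 of 6 libraries, then Psmc6 (55.6) and Psmc4 (53.2), in that order in 4 of 6. In the lid Psmd8 (62.2), Psmd3 (61.9), Psmd7 (57.6) and Psmd6 (54.5) led, and Psmd11 and Psmd13 were lowest at 29.3 and 29.2. The assembly factors spanned 6.30-fold, from Pomp at 65.9 FPKM to Psmd9 at 10.5.

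Core and 19S subunits varied little between libraries. The median ratio of the highest to the lowest library was 1.33 for the 32 core, ATPase, base and lid genes, and 1.46 for the 1792 tested genes in the same range of mean FPKM. The ratio was under 1.5 for 28 of the 32 (87.5%), and for 53.3% of those 1792 genes. It reached 2 or more in 5 of the 44 members: Psmd2 (2.62), Psmf1 (2.33), Psmc3ip (2.24), Psmd5 (2.03) and Psmg1 (2.01). This was the case for 33.4% of all tested genes and for 30.4% of those in the mean FPKM range of the 44 members. Of the 32 core, ATPase, base and lid genes 1 reached it, where 17.9% of the 1792 genes did.

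The inducible subunits, which share an assembly with the members, stood far higher in a single library, WT replicate 1. Psmb8 (LMP7), the inducible form of beta5, was at 133 FPKM in WT replicate 1 and between 6.69 and 17.9 in the other 5 libraries. Psmb9 (LMP2), the inducible beta1, was at 26.7 there and between 0.962 and 3.14 elsewhere. Psmb10 (MECL-1), the inducible beta2, was at 43.2 there and between 3.42 and 11.0 elsewhere. The interferon-induced cap genes Psme1 and Psme2 (PA28 alpha and beta) were at 75.8 and 135 there, above 21.5 to 41.9 and 24.0 to 57.4 elsewhere. As a share of the FPKM of its pair, Psmb8 made up 56.9% of Psmb8 plus Psmb5 in WT replicate 1 and between 5.56% and 14.4% elsewhere. The shares were 29.5% against 2.77% to 9.97% for Psmb10 with Psmb7, and 14.7% against 0.628% to 2.04% for Psmb9 with Psmb6. The constitutive partners were at 0.83 (Psmb5), 0.89 (Psmb7) and 0.94 (Psmb6) times the mean of the other libraries there. In the same library the macrophage markers summed to 348 FPKM and the lymphocyte markers to 37.9, against at most 126 and 24.0 elsewhere, and their part in the inducible levels was not tested.

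**Figure D4:**
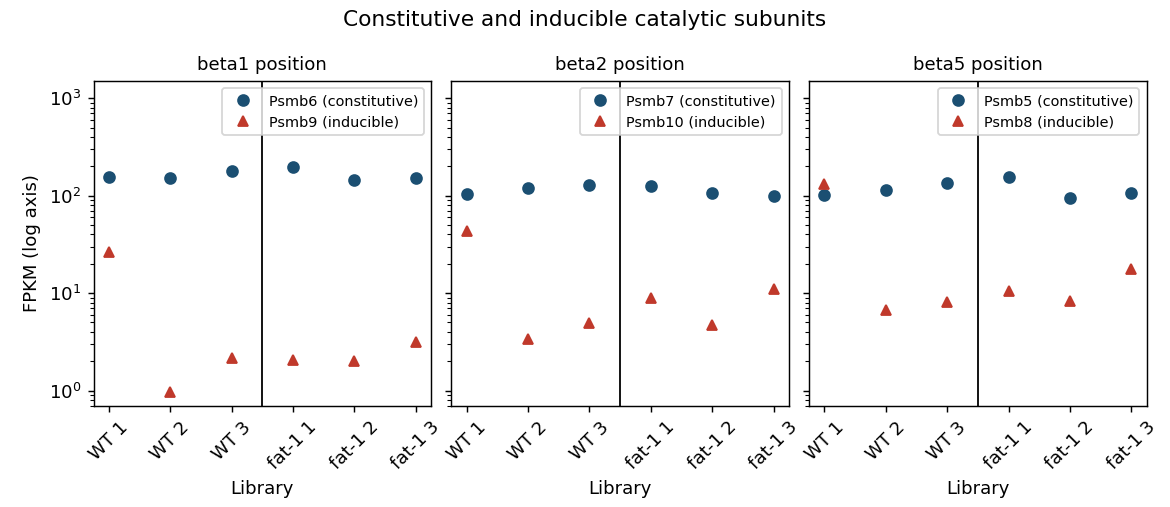
FPKM on a log axis of each constitutive catalytic subunit (circles) and its inducible counterpart (triangles) in the 6 libraries, 1 panel per catalytic position. WT replicate 1 is the only library in which an inducible subunit, Psmb8 at 133 FPKM, exceeds its constitutive partner, Psmb5 at 101.

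Across the genotypes, 0 of 5 inducible genes passed the test (smallest adjusted p 0.895, limma), and none had an unadjusted p under 0.05. Their median difference was -0.26, and WT replicate 1 decided its sign: without that library it was 0.59. Psme1 was then higher in fat-1 by 0.60 ± 0.19 on the log2 scale, with an adjusted p of 0.247 by limma, and Psmb8 by 0.59 ± 0.31 (adjusted p = 0.466). With fat-1 replicate 3 left out too, the differences were 0.50 ± 0.20 for Psme1 and 0.30 ± 0.18 for Psmb8 (adjusted p = 0.409 and 0.597, limma). In these 2 genes the 5 libraries other than WT replicate 1 did not overlap between the genotypes. This held for 20.4% of all genes in that direction. Psmb9, Psmb10 and Psme2 overlapped, and Psmb10 had the largest difference without WT replicate 1, 0.78 ± 0.34. WT replicate 1 was the highest library of all 5 inducible genes, so leaving it out raises their differences by itself.

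No gene that feeds, regulates or attends the proteasome passed the test, and none in these 3 lists had an unadjusted p under 0.05 by limma. Of 17 tested associated factors (shuttles, deubiquitinases and tethering proteins), 0 passed the test, and their median difference was -0.01. Sem1, the small lid subunit with a name outside the Psm families, was at 50.9, 49.5 and 60.1 FPKM in WT and at 48.4, 43.6 and 47.1 in fat-1, without overlap (difference -0.20 ± 0.12, adjusted p = 0.698, limma). The ubiquitin shuttle Ubqln4 was also without overlap and lower (difference -0.25 ± 0.11), and the ligase Ube3c without overlap and higher (0.08 ± 0.11). Of the 17, 1 was thus higher and 2 were lower without overlap, where 15.2% of all tested genes had groups that did not overlap. Nub1, which brings NEDD8-tagged proteins to the proteasome, was at 2.95, 14.1 and 15.97 FPKM in WT and at 3.48, 3.74 and 5.20 in fat-1, with WT replicate 1 below all fat-1 libraries (difference -0.98 ± 0.55, adjusted p = 0.666, limma). Fbxo7, a ligase subunit named after its values were seen, was at 32.0 FPKM in fat-1 replicate 1 and between 5.55 and 15.0 elsewhere (difference 0.63 ± 0.54, adjusted p = 0.830, limma). Usp14 and Uchl5, the deubiquitinases that dock on the 19S cap, differed by 0.01 ± 0.13 and 0.06 ± 0.13. Of the 6 ubiquitin genes, 0 passed and 1 had groups that did not overlap, against the same 15.2% of all tested genes. The polyubiquitin gene Ubb was at 532, 538 and 594 FPKM in WT and at 501, 443 and 434 in fat-1, all fat-1 libraries below all WT libraries (difference -0.27 ± 0.12, adjusted p = 0.530, limma).

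None of the 12 tested genes of the p97 and NRF1 route, by which NRF1 leaves the endoplasmic reticulum and reaches the proteasome genes, passed the test, and their median difference was -0.0036. Nfe2l1 differed by 0.01 ± 0.24 (adjusted p = 0.999, limma). Nfe2l2, which encodes the oxidative stress factor NRF2, differed by 0.31 ± 0.16 (adjusted p = 0.642), with overlapping groups. The ubiquitin ligase Syvn1 had the smallest p of this list (difference -0.43 ± 0.22, adjusted p = 0.617).

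The transcripts of the members were also tested singly. The 44 genes had 77 listed transcripts: 22 genes had 1 and 22 had at least 2. Of the 66 transcripts tested, 0 had an adjusted p under 0.05 (smallest 0.485, limma, over all 17119 tested transcripts), where 0.0584% of all did. At an unadjusted p under 0.05 there were 3, all higher in fat-1, where 4.52% of all transcripts were. Psmd4-202, the main transcript of Psmd4, was at 26.2, 26.3 and 27.7 FPKM in WT and at 35.0, 30.5 and 33.4 in fat-1. The groups did not overlap, and the difference was 0.29 ± 0.10 (adjusted p = 0.538, limma). Psmc3-210 was at 3.50, 6.82 and 4.98 FPKM in WT and at 7.12, 14.3 and 11.5 in fat-1 (difference 0.96 ± 0.31). Psma3-204 was listed at 1.18, 0 and 0 FPKM in WT and was at 2.24, 1.63 and 1.60 in fat-1. Of the tested member transcripts, these 3 were higher in fat-1 without overlap. Only 1, Psme4-202, was lower without overlap (difference -0.41 ± 0.22, adjusted p = 0.749, limma). The share of all tested transcripts without overlap is not given here, and at gene level it was 15.2%. By the GENCODE M21 sequences, all 30-base words of Psmc3-210 occur in Psmc3-202. For Psma3-204, 96.9% occur in Psma3-202, and for Psmd4-202, 92.9% occur in Psmd4-201. How reads were divided between such transcripts is not stated. In 15 of the 22 genes with several transcripts, the main one held more than 90% of the gene's FPKM as a mean over the WT libraries. Among these, Psmd10-201, Psmd11-201 and Psmf1-201 had mean shares of 89.6%, 85.5% and 85.2% in fat-1.

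The dominant transcript differed between libraries in 4 of those 22 genes (Psmc3, Psmc4, Psmd8 and Psmg4, 18.2%), and in 42.2% of the 6499 tested genes with several transcripts. Psmd8 and Psmc3 are described because their transcript values were seen to swing. The lid subunit Psmd8 summed to between 54.7 and 67.1 FPKM in the 6 libraries, yet its leading transcript was Psmd8-202 in WT replicate 1 (69.9% of the gene), Psmd8-203 in WT replicate 2 (89.8%) and Psmd8-201 in WT replicate 3 (85.0%). In fat-1 it was Psmd8-203 in replicate 1 (72.6%) and Psmd8-202 in replicates 2 and 3 (59.7% and 97.1%). All 30-base words of Psmd8-202 also occur in Psmd8-201 and in Psmd8-203, by the GENCODE M21 sequences. Psmc3-202 was at 67.9, 75.8 and 31.9 FPKM in WT and at 31.5, 59.9 and 28.0 in fat-1, while Psmc3-203 was at 8.91, 0 and 60.7 in WT and at 56.1, 9.74 and 62.1 in fat-1. The libraries high in one were low in the other, and 98.1% of the words of Psmc3-203 occur in Psmc3-202. The gene sums of Psmd8 and Psmc3 varied far less than these transcripts did.

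**Figure D5:**
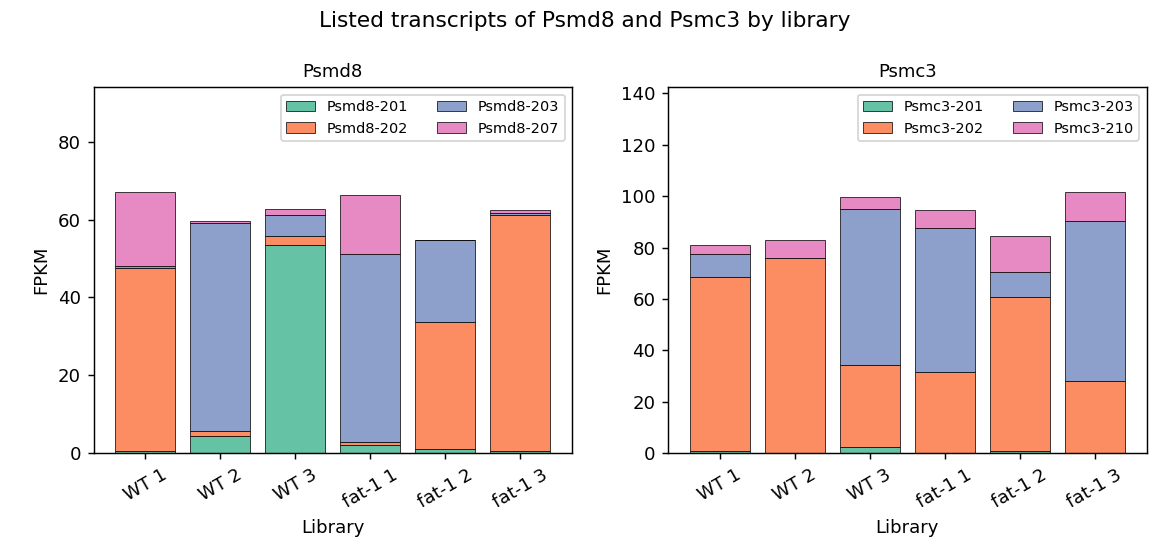
FPKM of each listed transcript of Psmd8 and Psmc3, stacked per library. The height of the stack, the gene sum, is between 54.7 and 67.1 FPKM for Psmd8 and between 81.0 and 102 for Psmc3, while the transcript that fills it changes between libraries of the same genotype.

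Leaving out fat-1 replicate 1 or WT replicate 3 shifted the members' differences but changed no call. Without fat-1 replicate 1, the libraries of 7 members did not overlap and were lower in fat-1 (Pomp, Psma4, Psmb2, Psmb3, Psmb6, Psme3 and Psmg1), where 13.0% of all genes were, and the members' median difference was -0.10. Without WT replicate 3, those of 6 members did not overlap and were higher (Psma3, Psmc3, Psmd1, Psmd4, Psmd9 and Psmd11), where 11.6% of all genes were, and the median was 0.05. In both fits 0 members had an unadjusted p under 0.05. Fat-1 replicate 1 held the highest value of 23 members and WT replicate 3 that of 13. Leaving out the former therefore lowers the members' differences by itself, and leaving out the latter raises them. The direction of these shifts thus says nothing about the genotypes.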

How the data were processed

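Total RNA of mouse kidney was sequenced in 3 WT and 3 fat-1 libraries. The authors' deposited tables, 1 per sample, give FPKM per protein-coding transcript (27486 listed, each reaching about 0.500 FPKM in some library). The mm10 build, DESeq2 1.20.0, HISAT2 2.0.5 and featureCounts 1.5.0-p3 are named by the submitters' processing notes, and neither the tool behind FPKM nor the use of strand in counting is stated there. The depth is unknown, so no counting intervals are given. Exons of 11 members overlap those of another gene, 9 of them on the opposite strand (GENCODE M21), and whether reads there were told apart is not known.

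FPKM was summed per gene identifier after gene symbols turned into dates were restored. Genes that reached 1 FPKM in 3 or more libraries were tested with limma 3.58.1 (R 4.3.3) on log2(FPKM + 1), with trend and robust estimation and no covariates or rescaling; the pseudocount of 1 understates changes of low genes. P-values were adjusted by Benjamini-Hochberg over every gene, or transcript, tested (threshold 0.05), and the code was tested on simulated data. Tables were handled with Python 3.11.15 and pandas 2.3.3 and drawn with matplotlib 3.10.9. Promoter windows are RefSeq's on GRCm38.p6; 76 of 77 transcripts were found in GENCODE M21.

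Members and gene lists were chosen with earlier results of these data known. Named with all libraries were Psmb5, Psmb6, Psmb7, the 2 members with the smallest p in each subunit group and those with the highest and lowest mean; other lists gave at most 3 genes with the smallest p plus a few chosen by function. For single genes outside this rule the text says that their values had been seen; Ube3c, Ubqln4 and Ubb were taken for their p or their lack of overlap. Alternatives were another pseudocount, 2 other filters, 3 scalings, limma without its robust or trend step, the most abundant transcript only, and leaving out libraries.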

Additional observations from a re-analysis of the deposited data

How the results depend on the processing

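In all 16 alternatives at gene level, 0 of 44 members had an adjusted p under 0.05 by limma; the smallest was between 0.453 and 0.770. With only the most abundant transcript per gene, 1 member (Psmd4) had an unadjusted p under 0.05 and groups that did not overlap, both higher in fat-1 (4.97% of all genes passed the former, and 913 of 11410 genes did the latter); no other alternative gave a member an unadjusted p under 0.05. With equal sums outside the mitochondrial genes, 3 members did not overlap and were higher (Psma3, Psmd1 and Psmd4; 8.31% of all genes). Leaving out 1 library at a time, between 0 and 6 members did not overlap and were higher, between 0 and 7 did not overlap and were lower (11.1% to 20.4% and 8.87% to 14.0% of all genes), and between 1 and 3 member transcripts had an unadjusted p under 0.05. Without WT replicate 1 and fat-1 replicate 3 together, 1 member was higher without overlap (Psmd1; 23.6% of all genes) and 2 were lower (Psmc2 and Psmd14; 19.8%). The sign of an uncalled difference changed in 0 to 17 of 44 members, and in 7 of them with median-of-ratios scaling. Psmd8 read 1.09 and Psmc3 -0.53 from their most abundant transcript alone, against -0.05 and 0.09 as gene sums. The cause of these shifts was not tested. No paired analysis was possible because the replicate numbers follow the order of the records and pair no samples. With 3 libraries per group and an unknown depth, true differences of any size inside the printed intervals are not excluded.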
